A study of Mus musculus with 8 samples.

Results

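The genes of Wnt signalling were examined in MC3T3-E1 cells grown with a bone scaffold: the Wnt ligands, the proteins that release them, their receptors, the secreted inhibitors, the R-spondin axis, and the genes that the pathway itself switches on. Members were taken by gene symbol alone, by family name for Wnt, Fzd, Dkk, Sfrp, Rspo, Lgr, Dvl, Axin, Lrp5 and Lrp6, and by name for 16 further genes, which gave 67 of the 55335 gene identifiers in the deposited table. MC3T3-E1 cells are pre-osteoblasts of a cell line derived from mouse calvaria. RNA was sequenced after 3 days of culture, in 4 libraries from cells on TABS, which the submitters title a Trio-Active bone scaffold, and in 4 from cells on HA, hydroxyapatite doped with magnesium. No library came from cells without a scaffold, so each difference is one of TABS relative to HA, and the sources used here do not give the make-up of TABS. Replicates carry numbers only and may share a culture, so the spread behind each p-value may be technical. In such bulk RNA, fewer cells of a kind and less RNA per cell cannot be told apart.

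Wnts are secreted, lipid-modified proteins. In the canonical branch they bind a Frizzled receptor together with the co-receptor Lrp5 or Lrp6, Dishevelled and Axin are drawn to the membrane, and beta-catenin escapes destruction and acts on genes through the factors Lef1 and Tcf7 and their relatives. Other branches run through Ror or Ryk receptors without beta-catenin. In bone, canonical signalling is known for favouring osteoblast formation, and loss of LRP5 in humans lowers bone mass.

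Levels are given in FPKM as the authors deposited them, that is, fragments scaled to transcript length and to library size, so levels of different genes may be compared. Of the 67 genes, 31 reached 1 FPKM in at least 4 of the 8 libraries and were tested, 25 lay lower, and 11 were listed at 0 in every library. All libraries held between 11187 and 11357 genes at 1 FPKM. Markers of the osteoblast lineage were present, with 9 of 10 averaging at least 1 FPKM (Alpl did not). The 10, among them the matrix genes Col1a1, Col1a2 and Sparc, summed to 5169 to 5742 FPKM in TABS and 5149 to 5415 FPKM in HA. None of 5 macrophage, 5 endothelial or 5 skeletal muscle markers averaged 1 FPKM, and Cx3cr1, Kdr, Myod1 and Myog were listed at 0 throughout. The 6 chondrocyte markers summed to 41.0 to 44.0 FPKM in TABS and 37.5 to 42.0 FPKM in HA (Col9a1 listed at 0), the 6 adipocyte markers to 4.19 to 4.86 FPKM in TABS and 3.93 to 5.21 FPKM in HA, and the 5 osteocyte markers, carried by Dmp1 and Pdpn, to 63.4 to 69.6 FPKM in TABS and 45.9 to 52.5 FPKM in HA (Fgf23 listed at 0). Mitochondrial transcripts made up 10.2% to 12.2% of the summed FPKM in TABS and 12.1% to 14.5% in HA. The part of these differences in the results was not tested.

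Most tested genes of the pathway did not pass the test between the scaffolds, and those that did belonged to several of its layers. The ligand gene Wnt5b and the receptor gene Fzd5 were higher in TABS, and the feedback gene Axin2, the receptor gene Fzd9 and the ligand gene Wnt6 were lower, which makes 5 of 31 tested members (16.1%) past an adjusted p of 0.05 (limma over all 11280 tested genes). Over all tested genes 7.38% passed, 4.49% as higher and 2.9% as lower in TABS. The members were chosen with earlier results of these data known. Their share is therefore a description of the genes chosen and was not tested. Of the 5 calls on members, that on Wnt5b alone held without each single library. All 4 libraries of one group lay beyond all 4 of the other in 12 of the 31 members, 6 in each direction. Over all 11280 tested genes this held for 2030 (18.0%). Log2 fold changes are differences of mean log2(FPKM + 1), TABS minus HA, and so understate the change of genes with low FPKM. Their median was 0.015 over the 31 members and 0.006 over all tested genes. Among members too low for this test, the R-spondin receptor gene Lgr6 was higher and the inhibitor gene Dkk2 lower in TABS in a fit that admits genes from 0.1 FPKM. Reading these lower members from that fit was not planned.

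**Figure D1:**
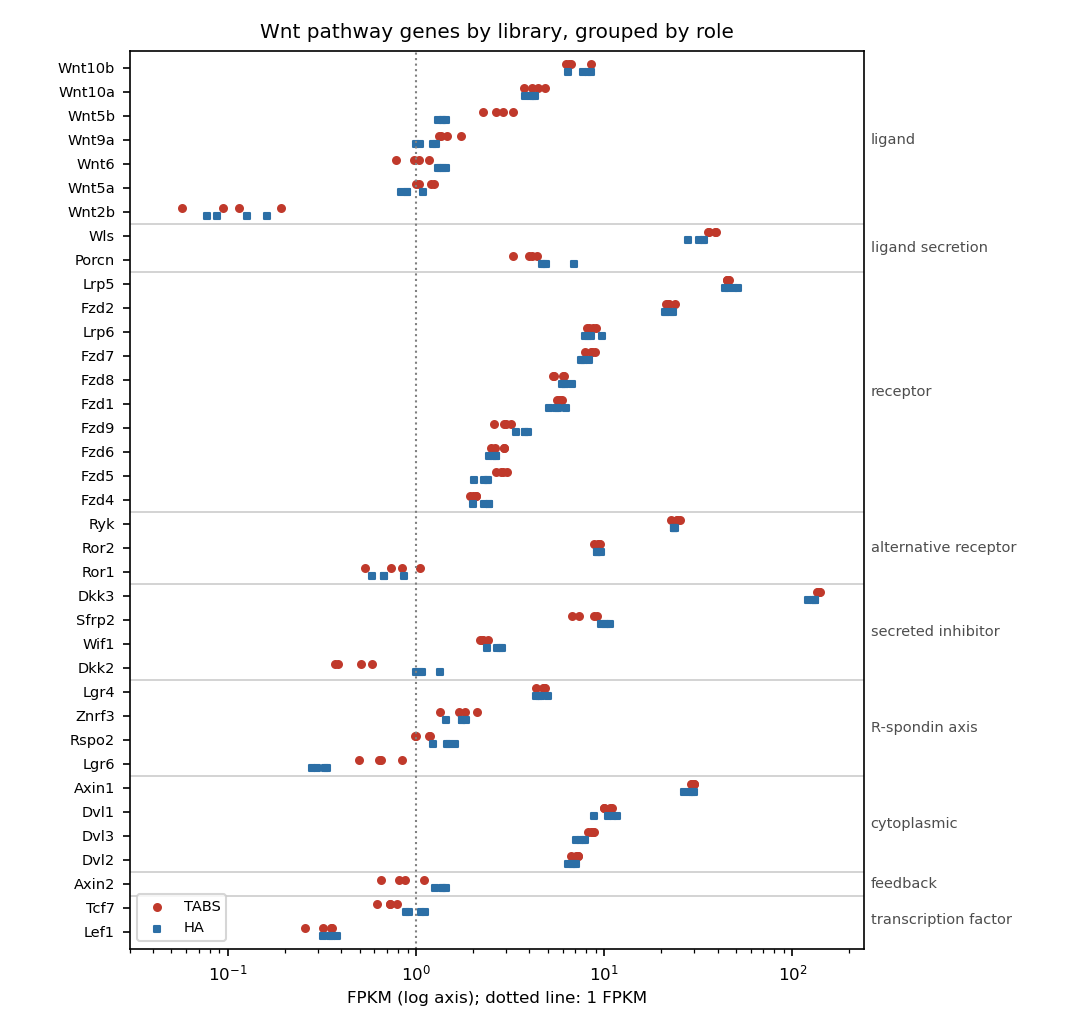
FPKM on a log axis for the 31 tested members and the 6 lower ones that averaged at least 0.1 FPKM, grouped by role, with 1 point per library (TABS as circles above HA as squares, 4 libraries each). Dkk3, Lrp5, Wls, Axin1, Ryk and Fzd2 stand above 20 FPKM in all libraries, whereas Dkk2, Lgr6, Axin2, Tcf7 and Lef1 lie near or below the dotted line at 1 FPKM.

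Of the 19 Wnt ligand genes 6 were tested, and Wnt10b was the most abundant. Wnt10b, a canonical ligand known to favour osteoblast over fat cell fate, stood at 6.23, 6.47, 6.63 and 8.49 FPKM in TABS and at 8.55, 8.15, 6.42 and 7.68 FPKM in HA. The groups overlapped and the difference did not pass the test (-0.13 ± 0.10 SE, limma adjusted p = 0.471, 95% interval -0.36 to 0.10). Wnt10a, its close relative, had 3.75 to 4.86 FPKM in TABS and 3.8 to 4.29 FPKM in HA (0.06, 95% interval -0.09 to 0.21).

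Wnt5b, a ligand mostly linked to signalling without beta-catenin, had the largest log2 fold change of the 31 tested members. Its levels were 2.66, 2.91, 3.26 and 2.26 FPKM in TABS, against 1.30, 1.38, 1.44 and 1.37 FPKM in HA. Every TABS library lay above every HA library, and the mean of TABS (2.77 ± 0.42, SD, n = 4) was 2.02 times that of HA (1.37 ± 0.06). The log2 fold change was 0.66 ± 0.08 SE with limma adjusted p = 0.00182. It passed in all 20 alternatives in which Wnt5b could be fitted, with adjusted p from 0.00107 to 0.0283 (the 5 FPKM filter removes it).

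Wnt5a, the paralog of Wnt5b, was lower in level, at 0.995 to 1.25 FPKM in TABS and 0.83 to 1.08 FPKM in HA, and the groups overlapped (0.14 ± 0.06 SE, adjusted p = 0.217). Wnt6 went the other way from Wnt5b. Its levels were 0.784, 0.978, 1.18 and 1.04 FPKM in TABS, against 1.44, 1.34, 1.39 and 1.30 FPKM in HA, with all TABS libraries below all HA libraries (-0.25 ± 0.07 SE, adjusted p = 0.0494). Only 2 TABS libraries reached the 1 FPKM of the filter, against all 4 of HA, and the call sat at the threshold: removing any library but TABS 3 ended it (adjusted p up to 0.106), as did a pseudocount of 0.5 (0.0519) or 0.1 (0.0569), TPM scaling (0.0623), quantile normalization (0.0736), no filter (0.135) and a joint filter and pseudocount of 0.1 FPKM (0.0668). Wnt9a, known for its part in joint and cartilage formation, had 1.73, 1.32, 1.45 and 1.36 FPKM in TABS and 1.0, 1.04, 1.27 and 1.23 FPKM in HA, higher in every TABS library without passing the test (0.21 ± 0.07 SE, adjusted p = 0.11).

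The summed level of the 19 ligand genes was 17.8 ± 1.26 FPKM in TABS and 16.8 ± 0.74 FPKM in HA (SD, n = 4). Within that sum the share of Wnt5b was 16.2%, 17.2%, 17.3% and 11.9% in TABS, against 7.45%, 7.97%, 9.04% and 8.34% in HA. The share of Wnt10b was 39.0% ± 4.10 in TABS and 45.8% ± 3.73 in HA, and that of Wnt6 was 5.56% ± 0.63 in TABS and 8.17% ± 0.42 in HA. These shares come from the same values as the tests above and were not tested. Of the remaining 13 ligands, Wnt2b, a canonical ligand, had 0.192, 0.0936, 0.115 and 0.0572 FPKM in TABS and 0.0872, 0.161, 0.0778 and 0.127 FPKM in HA. Wnt2, Wnt3, Wnt8a, Wnt9b and Wnt16 were listed at 0 in every library, and Wnt1, Wnt3a, Wnt4, Wnt7a, Wnt7b, Wnt8b and Wnt11 stayed between 0 and 0.103 FPKM.

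**Figure D2:**
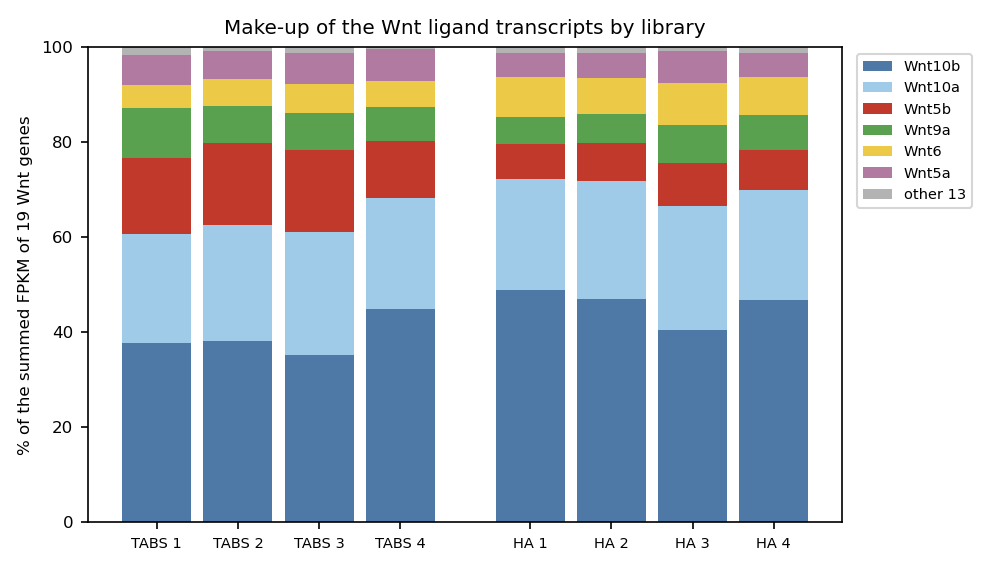
Stacked bars of each library's summed FPKM of the 19 Wnt ligand genes, in percent, TABS libraries at left and HA libraries at right. The red part, Wnt5b, is larger in each TABS library (11.9% to 17.3%) than in any HA library (7.45% to 9.04%), and Wnt10b with Wnt10a make up most of every bar.

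Both genes of ligand release were well above the filter and shifted in opposite directions without passing the test. Wls, the carrier that takes Wnts to the cell surface, had 38.6, 39.3, 35.5 and 36.2 FPKM in TABS, against 27.9, 31.9, 33.7 and 33.5 FPKM in HA. Every TABS library was higher (0.23 ± 0.07 SE, adjusted p = 0.0645), and the difference passed after TPM scaling (0.28, adjusted p = 0.0349) and after correction for transcript GC content and length (0.31, adjusted p = 0.00376). In 18 of 21 alternatives Wls did not pass, including all with 1 library left out (limma adjusted p from 0.0759 to 0.146). Porcn, the enzyme that attaches the lipid to Wnts, had 3.98, 4.12, 4.4 and 3.28 FPKM in TABS, against 6.88, 4.76, 4.88 and 4.66 FPKM in HA. Its TABS libraries all lay below those of HA, but HA 1 stood apart from the other HA libraries (-0.34 ± 0.11 SE, adjusted p = 0.11).

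Among the Frizzled receptors and the co-receptors Lrp5 and Lrp6, Lrp5 and Fzd2 were the most abundant, and Fzd5 and Fzd9 passed the test. Fzd5 had 2.82, 3.05, 2.89 and 2.67 FPKM in TABS, against 2.03, 2.29, 2.39 and 2.40 FPKM in HA. The groups did not overlap, with a log2 fold change of 0.24 ± 0.05 SE and limma adjusted p = 0.0346. Fzd9, which in mice is needed for full osteoblast activity, had 3.02, 2.59, 2.92 and 3.20 FPKM in TABS, against 3.78, 3.93, 3.38 and 3.81 FPKM in HA. All TABS libraries were lower (-0.27 ± 0.06 SE, adjusted p = 0.0349).

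The call on Fzd5 ended on removal of any library but HA 4 (adjusted p at most 0.0892), after GC and length correction (0.17, adjusted p = 0.0889) and with no filter (0.083), and that on Fzd9 on removal of any library but TABS 4 or HA 3 (at most 0.086), and with no filter (0.086). Exons of Fzd5 overlap a transcript on the other strand that is yet to be verified by experiment, Gm38058, over 17.8% of their length, and that transcript averaged 0.074 FPKM.

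The remaining 6 tested Frizzled genes did not pass. Fzd2 had 21.3 to 23.7 FPKM in TABS and 20.9 to 23.3 FPKM in HA (0.01, 95% interval -0.10 to 0.13), and Fzd1 had 5.58 to 5.97 FPKM in TABS and 5.09 to 6.23 FPKM in HA (0.03, 95% interval -0.09 to 0.16). Fzd7 was at 7.93 to 8.93 FPKM in TABS and 7.52 to 8.27 FPKM in HA (0.11, adjusted p = 0.209), and Fzd6 at 2.51 to 2.94 FPKM in TABS and 2.44 to 2.65 FPKM in HA (0.07, adjusted p = 0.497). On the lower side, Fzd8 had 5.33 to 6.08 FPKM in TABS and 5.97 to 6.71 FPKM in HA (-0.12, adjusted p = 0.224), and Fzd4 had 1.94 to 2.09 FPKM in TABS and 2.0 to 2.43 FPKM in HA (-0.12, adjusted p = 0.228). The summed level of the 10 Frizzled genes was 52.8 ± 1.21 FPKM in TABS and 52.6 ± 1.83 FPKM in HA, of which Fzd2 held 42.1% ± 1.06 in TABS and 41.9% ± 1.57 in HA. Fzd10 was listed at 0 throughout, and Fzd3 did not exceed 0.0036 FPKM.

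Of the co-receptors, Lrp5 had 45.1, 45.0, 45.7 and 45.6 FPKM in TABS and 51.5, 49.0, 43.6 and 45.6 FPKM in HA. The HA libraries surrounded those of TABS, and the test did not pass (-0.06 ± 0.05 SE, 95% interval -0.18 to 0.06). Lrp6, the second co-receptor, had 8.07 to 8.98 FPKM in TABS and 7.90 to 9.68 FPKM in HA (-0.01, 95% interval -0.15 to 0.13). The receptors of the branches without beta-catenin did not pass either: Ryk had 22.7 to 25.2 FPKM in TABS and 23.6 to 23.7 FPKM in HA (0.03, 95% interval -0.06 to 0.12), and Ror2, a receptor of Wnt5a, 8.82 to 9.47 FPKM in TABS and 9.18 to 9.55 FPKM in HA (-0.01, 95% interval -0.10 to 0.08). Ror1 stayed under the filter at 1.05, 0.732, 0.534 and 0.839 FPKM in TABS and 0.581, 0.863, 0.675 and 0.676 FPKM in HA, with overlapping groups.

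**Figure D3:**
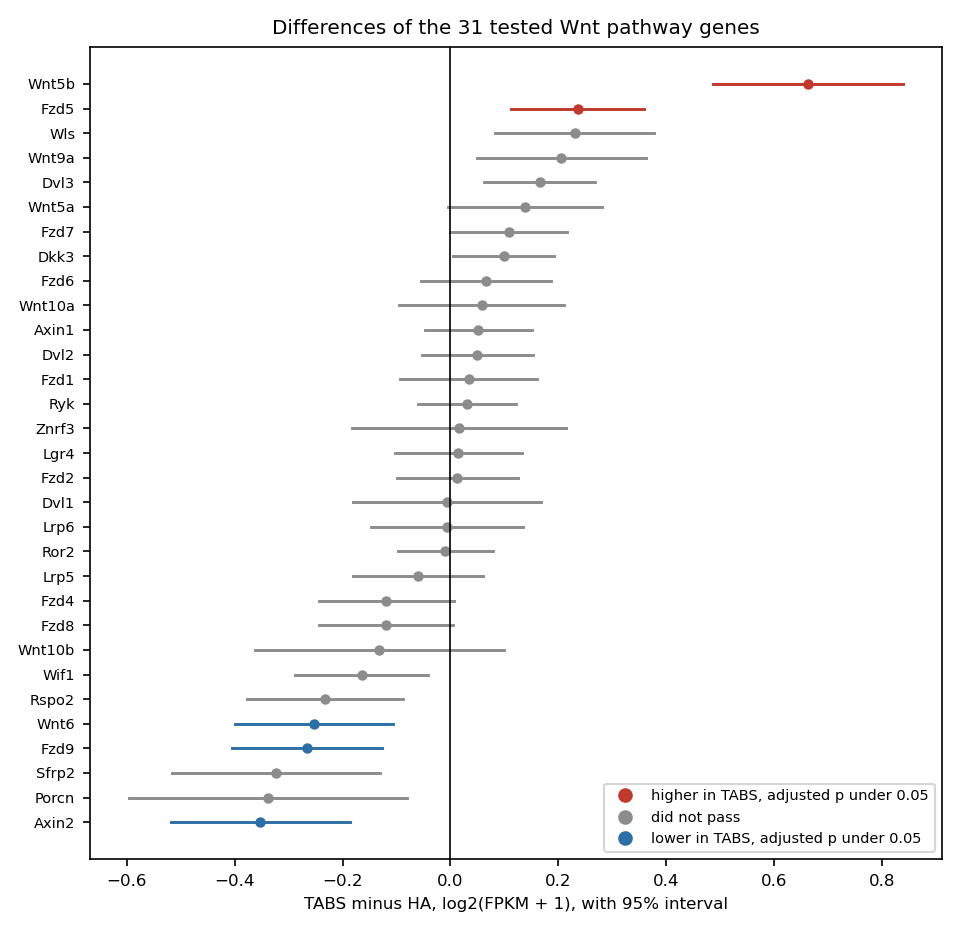
Log2 fold changes of the 31 tested members, differences in mean log2(FPKM + 1), TABS minus HA, with 95% intervals from limma, ordered from highest to lowest. Wnt5b stands at 0.66 at the top and Axin2 at -0.35 at the bottom, and 26 of the 31 members, in grey, did not pass the test.

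The secreted inhibitors were dominated by Dkk3, a member of the Dickkopf family that differs from the others in not binding Lrp6. Dkk3 had 138, 141, 136 and 135 FPKM in TABS, against 121, 132, 131 and 129 FPKM in HA. All TABS libraries were higher, by 1.07 times in the mean, without passing the test (0.10 ± 0.04 SE, adjusted p = 0.183). Dkk2, which binds Lrp5 and Lrp6 and can block or promote signalling depending on its partners, fell in TABS. It had 0.370, 0.383, 0.507 and 0.586 FPKM in TABS, against 1.34, 0.996, 1.04 and 1.07 FPKM in HA, with no overlap and a mean 2.41 times as high in HA.

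Dkk2 reached 1 FPKM in 3 libraries and so missed the filter. In the fit with a filter and a pseudocount of 0.1 FPKM its log2 fold change was -1.12 ± 0.15 SE with limma adjusted p = 0.00493. That fit called 6 of its 37 members, 3 in each direction, against 4.61% of its 15931 genes, 2.78% as higher and 1.83% as lower in TABS. The call on Dkk2 held without each single library (adjusted p up to 0.0195). Dkk1 and Sost, the inhibitors best known in bone, were each listed at 0 in 7 of 8 libraries, with 0.0137 FPKM of Dkk1 in HA 4 and 0.0228 FPKM of Sost in HA 2, and Dkk4 was listed at 0 in all.

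Sfrp2, a soluble Frizzled-like protein that binds Wnts, had 6.72, 7.34, 8.76 and 9.13 FPKM in TABS, against 10.3, 10.7, 9.66 and 10.0 FPKM in HA. Every TABS library was lower (-0.32 ± 0.09 SE, adjusted p = 0.0533), just short of the threshold, which it passed with a filter of 5 FPKM (adjusted p = 0.0458), median-of-ratios scaling (0.0499), quantile normalization (0.0476), robust variances (0.0455), GC and length correction (0.0309) or without TABS 4 (0.0386). In the remaining 15 of 21 alternatives Sfrp2 did not pass (limma adjusted p up to 0.139). Exons of Sfrp2 overlap an antisense transcript, Gm26771, over 16.1% of their length. Wif1, another Wnt-binding inhibitor, had 2.40, 2.19, 2.27 and 2.25 FPKM in TABS and 2.86, 2.69, 2.37 and 2.80 FPKM in HA (-0.16 ± 0.05 SE, adjusted p = 0.106), and the groups overlapped in 1 HA library. Sfrp1 was listed at 0 throughout, and Sfrp4, Sfrp5 and Frzb stayed between 0 and 0.0533 FPKM.

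R-spondins strengthen Wnt signalling: they bind Lgr4, Lgr5 or Lgr6 and so keep the ubiquitin ligases Znrf3 and Rnf43 from removing Frizzled receptors. Within this axis Lgr6 differed. It had 0.845, 0.635, 0.499 and 0.654 FPKM in TABS, against 0.299, 0.281, 0.329 and 0.334 FPKM in HA, with every TABS library above every HA library and a mean 2.12 times as high in TABS. In the fit with a filter and a pseudocount of 0.1 FPKM its log2 fold change was 0.87 ± 0.15 SE with limma adjusted p = 0.0147, and the call held without each single library (up to 0.0455).

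Lgr4 carried most of the receptor transcripts of this axis, with 4.34 to 4.86 FPKM in TABS and 4.32 to 5.01 FPKM in HA (0.01, 95% interval -0.10 to 0.13). Lgr6 therefore made up 12.3% ± 2.40 of the summed Lgr level in TABS and 6.31% ± 0.34 in HA. Lgr5 was listed at 0 in every library. Of the ligands of these receptors, Rspo2 alone was tested, at 1.0, 1.19, 1.16 and 0.981 FPKM in TABS, against 1.6, 1.22, 1.46 and 1.5 FPKM in HA. It was lower in each TABS library without passing the test (-0.23 ± 0.06 SE, adjusted p = 0.061, or 0.043 without HA 2). In the remaining 19 of 20 alternatives Rspo2 did not pass. Rspo1 was listed at 0, and Rspo3 and Rspo4 stayed between 0 and 0.0516 FPKM. Znrf3 had 1.34 to 2.10 FPKM in TABS and 1.44 to 1.85 FPKM in HA (0.02, 95% interval -0.18 to 0.21), and Rnf43 0 to 0.0310 FPKM in TABS and 0.0157 to 0.0581 FPKM in HA.

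In the cytoplasm, none of the 4 genes tested passed. Axin1, the scaffold of the complex that destroys beta-catenin, had 29.0 to 30.1 FPKM in TABS and 26.6 to 29.8 FPKM in HA (0.05, 95% interval -0.05 to 0.15). Of the Dishevelled genes, which relay the signal from Frizzled, Dvl3 had 8.46, 8.78, 8.16 and 8.70 FPKM in TABS, against 7.68, 7.85, 7.4 and 7.04 FPKM in HA. It was higher in every TABS library but did not pass (0.17 ± 0.05 SE, adjusted p = 0.0601), except after TPM scaling (0.22, adjusted p = 0.0253). Dvl1 had 9.98 to 11 FPKM in TABS and 8.84 to 11.6 FPKM in HA (-0.01, 95% interval -0.18 to 0.17). Dvl2 had 6.66 to 7.27 FPKM in TABS and 6.43 to 7.11 FPKM in HA (0.05, 95% interval -0.05 to 0.15), a value that is uncertain since 18.3% of its exon length overlaps Acadvl on the other strand, a gene at 35.0 FPKM.

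Axin2, the relative of Axin1 that canonical signalling itself switches on as a brake, was lower in TABS. Its levels were 0.652, 0.810, 0.873 and 1.10 FPKM in TABS, against 1.39, 1.38, 1.26 and 1.43 FPKM in HA. All TABS libraries lay below all HA libraries, with means of 0.858 ± 0.19 FPKM in TABS and 1.36 ± 0.08 FPKM in HA (SD, n = 4) and a log2 fold change of -0.35 ± 0.07 SE (limma adjusted p = 0.023). Axin2 passed the filter through HA, since 1 TABS library and all 4 HA libraries reached 1 FPKM. With the filter and pseudocount of 0.1 FPKM, which all 8 libraries pass, the log2 fold change was -0.63 ± 0.14 SE with adjusted p = 0.0356. Removing any library but TABS 4 or HA 3 ended the call (adjusted p from 0.051 to 0.0626), as did dropping the filter (0.0747).

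Other feedback genes and Tcf7 and Lef1, the transcription factors among the members, lay below the filter. Of their relatives in the further lists given below, Tcf7l1 averaged 33.7 FPKM in TABS and 32.7 FPKM in HA. Tcf7l2 averaged 3.05 FPKM in TABS and 2.76 FPKM in HA. Neither passed the test (0.05, limma adjusted p = 0.69, and 0.11, adjusted p = 0.3). Tcf7, a factor that carries beta-catenin to its targets and is a target as well, had 0.619, 0.730, 0.724 and 0.790 FPKM in TABS, against 1.06, 1.11, 0.886 and 0.912 FPKM in HA. Each TABS library was lower, but the difference did not pass in the fit from 0.1 FPKM (-0.42 ± 0.11 SE, adjusted p = 0.0665) and passed only with a correction for transcript GC and length (-0.46, adjusted p = 0.0307). Lef1, its relative, had 0.321, 0.257, 0.356 and 0.353 FPKM in TABS and 0.379, 0.322, 0.358 and 0.349 FPKM in HA, with overlapping groups (-0.10, 95% interval -0.40 to 0.19).

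Nkd2, which binds Dishevelled and dampens the signal, missed the filter of 0.1 FPKM too and was singled out after its values were seen. It had 0.0114, 0, 0.0095 and 0.0167 FPKM in TABS, against 0.124, 0.0582, 0.0691 and 0.104 FPKM in HA. The groups did not overlap, and with no filter Nkd2 passed (-0.11 ± 0.02 SE on the log2(FPKM + 1) scale, limma adjusted p = 0.0382), where 1.92% of 28201 genes passed. How many fragments lie behind such levels is unknown because the table holds no counts. Nkd1 was listed at 0 in every library, Notum, which strips the lipid from Wnts, had 0 to 0.144 FPKM in TABS and 0 to 0.0848 FPKM in HA, and Apcdd1, a membrane inhibitor, did not exceed 0.0178 FPKM.

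**Figure D4:**
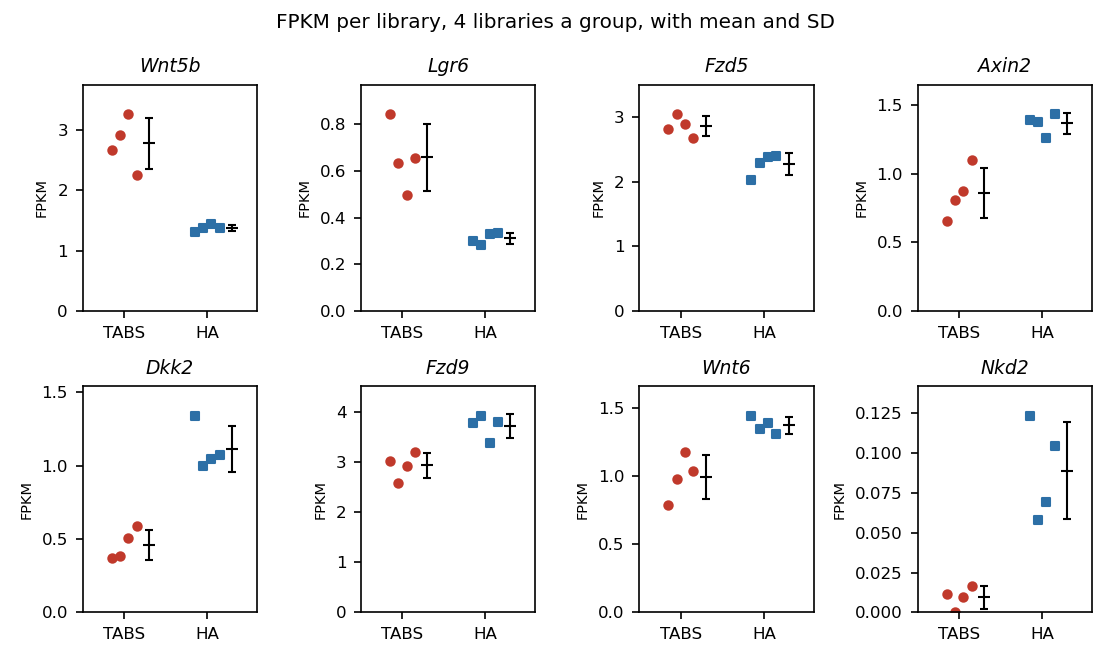
FPKM per library of the 5 members that passed the test, of Lgr6 and Dkk2 from the fit with a filter of 0.1 FPKM, and of Nkd2 from the fit without a filter, TABS at left and HA at right in each panel (bars, mean and SD of 4 libraries, axes from 0). In every panel the 2 groups are apart, with Wnt5b, Lgr6 and Fzd5 higher and Axin2, Dkk2, Fzd9, Wnt6 and Nkd2 lower in TABS. The genes of all panels were chosen by tests on these same values, so their separation here is not a further result. Nkd2 was singled out after its values were seen, and the reading of Lgr6 and Dkk2 was not planned.

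In GRCm38, the build named for the files, Wnt5b (ENSMUSG00000030170) lies on the minus strand of chromosome 6 from 119432531 to 119544347 and Lgr6 (ENSMUSG00000042793) on the minus strand of chromosome 1 from 134983301 to 135105276. Axin2 (ENSMUSG00000000142) lies on the plus strand of chromosome 11 from 108920349 to 108950783, and Dkk2 (ENSMUSG00000028031) on the plus strand of chromosome 3 from 132085292 to 132180304. Wnt6 (ENSMUSG00000033227), from 74771892 to 74785322 on chromosome 1, is followed on the same strand by Wnt10a, which starts at 74791516 and whose difference did not pass. Fzd5 (ENSMUSG00000045005) lies on chromosome 1 from 64730558 to 64737751 and Fzd9 (ENSMUSG00000049551) on chromosome 5 from 135248938 to 135251230. Each of these 7 genes and Wnt10a codes for a protein.

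The start regions of the 4 members with the largest log2 fold changes in the fit with a filter and pseudocount of 0.1 FPKM are shown because Lef1 and Tcf7 read a short DNA word and these are the places where it was looked for. Each window runs from 250 bases before to 50 bases after a RefSeq transcription start (GRCm38.p6), written on the gene's own strand. Capitals mark 2 kinds of motif, each searched on either strand, and no 2 marks overlap. The first is the Lef1 and Tcf7 word, which was taken in its form CTTTGAA as well as in the closely related form CTTTGAT, in a further form spelled CTTTGTA, and in a last form spelled CTTTGTT. The second is the GC box known to bind factors of the Sp family, spelled GGGCGG. For Wnt5b, 1 of its 3 windows, at the innermost start, is given, since it alone of the 3 holds a Lef1 and Tcf7 word.
Wnt5b (chr6:119449337-119449636, minus strand): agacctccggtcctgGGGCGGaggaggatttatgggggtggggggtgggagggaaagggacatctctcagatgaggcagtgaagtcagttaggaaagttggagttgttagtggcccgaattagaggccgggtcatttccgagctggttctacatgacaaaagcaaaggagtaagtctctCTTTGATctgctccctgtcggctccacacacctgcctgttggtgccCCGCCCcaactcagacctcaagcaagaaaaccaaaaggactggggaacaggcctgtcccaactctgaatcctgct
Lgr6 (chr1:135105227-135105526, minus strand): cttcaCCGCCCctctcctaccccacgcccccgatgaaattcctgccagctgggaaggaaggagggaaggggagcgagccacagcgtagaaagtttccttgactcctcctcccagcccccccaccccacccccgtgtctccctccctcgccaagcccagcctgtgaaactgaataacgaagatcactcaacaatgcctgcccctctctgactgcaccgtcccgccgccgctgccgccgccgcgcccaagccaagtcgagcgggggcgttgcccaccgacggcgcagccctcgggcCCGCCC
Axin2 (chr11:108920099-108920398, plus strand): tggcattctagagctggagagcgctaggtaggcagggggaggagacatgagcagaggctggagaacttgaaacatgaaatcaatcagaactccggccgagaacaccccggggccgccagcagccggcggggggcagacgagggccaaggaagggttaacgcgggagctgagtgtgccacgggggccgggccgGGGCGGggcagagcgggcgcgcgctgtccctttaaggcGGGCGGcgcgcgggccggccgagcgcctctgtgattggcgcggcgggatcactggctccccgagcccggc
Dkk2 (chr3:132085042-132085341, plus strand): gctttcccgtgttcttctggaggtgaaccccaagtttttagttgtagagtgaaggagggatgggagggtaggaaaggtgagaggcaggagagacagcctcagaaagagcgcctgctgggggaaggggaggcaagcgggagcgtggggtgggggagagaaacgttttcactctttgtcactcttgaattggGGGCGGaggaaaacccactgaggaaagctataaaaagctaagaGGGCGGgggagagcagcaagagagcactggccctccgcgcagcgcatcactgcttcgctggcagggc

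In the Wnt5b window the word CTTTGAT begins 71 bases before the start, and in the windows of Lgr6, Axin2 and Dkk2 the capitals are GC boxes only, 2 in each. Windows were found for 45 of the 67 members, 53 in all, and 6 of these (11.3%) held a Lef1 and Tcf7 word, against 16.9% of all 32851 windows. GC boxes were in 38 of the 53 (71.7%), against 35.7% of all windows. The FPKM values are per gene and do not tell which start was used.

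Further genes of the pathway, in 4 lists, mostly did not pass the test. Of 82 tested genes of the 108 listed, 6 rose, 3 fell and 73 did not pass (11% called, against 7.38% of all tested genes). The 4 lists were chosen with earlier results of these data known. This share and that of each list therefore describe the genes chosen and were not tested. Of the destruction complex, beta-catenin partners and repressors, 1 of 30 rose and 0 fell (3.33% called). Their median log2 fold change was 0.05, against 0.006 over all tested genes. The gene that rose was Bcl9, which ties beta-catenin to the transcription machinery, at 7.67 ± 0.22 FPKM in TABS and 6.61 ± 0.12 FPKM in HA (0.19, limma adjusted p = 0.0222). Tle2, a co-repressor of Tcf factors (-0.14, adjusted p = 0.0834), and Ctnnbip1, an inhibitor that binds beta-catenin (0.15, adjusted p = 0.09), came next without passing. The call on Bcl9 ended on removal of TABS 1, TABS 2, TABS 3 or HA 3 (adjusted p at most 0.0704) and after GC and length correction (0.11, adjusted p = 0.098).

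Of 15 genes at the cell surface or outside it, 2 rose and 1 fell, with a median of 0.09. That is 20.0% called, against 7.38% of all tested genes. Lrp1, a large endocytic receptor of the Lrp family, had 156, 149, 159 and 147 FPKM in TABS, against 118, 116, 99.4 and 108 FPKM in HA. All TABS libraries were higher (0.47 ± 0.06 SE, limma adjusted p = 0.00257). Gpc1, a heparan sulfate proteoglycan, averaged 85.6 ± 2.48 FPKM in TABS and 72.3 ± 4.09 FPKM in HA (0.24, adjusted p = 0.02, lost without TABS 1, TABS 3 or HA 3, up to 0.0645). Draxin, a guidance protein that also inhibits Wnt signalling, averaged 2.35 ± 0.29 FPKM in TABS and 3.19 ± 0.32 FPKM in HA (-0.33, adjusted p = 0.0362, ended by dropping the filter or any library but TABS 3 or HA 1, at most 0.0997).

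Of 13 tested genes known as Wnt targets in one tissue or another, 2 rose and 1 fell, with a median of 0.00. The share called was 23.1%, against 7.38% of all tested genes. Fosl1, an AP-1 subunit, averaged 10.1 ± 0.96 FPKM in TABS and 6.67 ± 0.95 FPKM in HA (0.53, limma adjusted p = 0.0122), and Ccn5, a matricellular gene, 42.7 ± 3.62 FPKM in TABS and 34.7 ± 2.58 FPKM in HA (0.29, adjusted p = 0.0422). Fst, the activin antagonist, averaged 6.29 ± 0.33 FPKM in TABS and 8.60 ± 0.60 FPKM in HA (-0.40, adjusted p = 0.00448). These targets therefore lay on both sides of 0, and each is known to answer to other signals too. The call on Ccn5 was lost with median-of-ratios scaling (0.0514), with no filter (0.107), with the filter and pseudocount of 0.1 FPKM (0.0541) and on removal of any library but TABS 4 (at most 0.104).

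Of 24 genes of planar cell polarity and calcium signalling, 1 rose and 1 fell, with a median of 0.01. This share of 8.33% lay near the 7.38% of all tested genes. Vangl1, a membrane protein of planar polarity, had 12.6, 12.4, 11.7 and 11.9 FPKM in TABS, against 9.82, 10.1, 10.3 and 10.2 FPKM in HA (0.24 ± 0.04 SE, limma adjusted p = 0.0083). Daam2, a formin that binds Dishevelled, had 25.2, 25.8, 25.9 and 25.8 FPKM in TABS, against 29.6, 30.6, 29.8 and 28.6 FPKM in HA (-0.20 ± 0.04 SE, adjusted p = 0.0125). For both genes the groups were apart, and the calls held without each single library (adjusted p up to 0.0326 for Vangl1 and 0.0445 for Daam2). Plcb1, a phospholipase that releases the calcium signal, did not pass (0.21, adjusted p = 0.0597).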

How the data were processed

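The authors deposited 1 table of FPKM values per gene and library. The submitters' processing notes name GRCm38, STAR, fastp and DESeq2. The sources used here give neither their versions nor what each did, and no annotation release, strand setting or program for FPKM. Per the labels' protocols, NEBNext Ultra libraries were read as paired reads of 150 bases. Columns were assigned by library name, which carries H for TABS and L for HA; no gene checks which scaffold a library grew with. The depth is unknown, so no interval that needs counts is given. Symbols, coordinates and exon overlaps came from GENCODE M21 (GRCm38; 55154 of 55335 identifiers found), promoters from RefSeq. Without a stated strand setting, reads of overlapping genes cannot be told apart.

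Genes with at least 1 FPKM in at least 4 of 8 libraries were compared on log2(FPKM + 1) by limma 3.58.1 (R 4.3.3), with trended moderated variances, two-sided, Benjamini-Hochberg over 11280 genes, threshold 0.05, no block. Lower members were read from the same fit with a filter and a pseudocount of 0.1 FPKM (15931 genes). That reading was not planned, since lower members were to be given by their values only. The fit was tested on simulated data. All members past the filter were named, lower ones by library where they averaged 0.1 FPKM, and 3 genes of each further list by smallest p. Tcf7l1 and Tcf7l2 were added later as relatives of Tcf7 and Lef1. The members and lists were chosen with earlier results of these data known. Pseudocount, filter, scaling, variance, GC and length, replicate block and single left-out libraries were varied. Same-numbered libraries did not deviate together (correlations 0.105, 0.05, -0.104 and -0.058).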

Additional observations from a re-analysis of the deposited data

Results flagged for a closer look

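Among 74 groups of 4 libraries checked (37 genes on 2 scaffolds), 1 held a library far from the rest, and chance alone marks about 1 group in 20. Porcn, the lipid-attaching enzyme of Wnt secretion, stood at 6.88 FPKM in HA 1, against 4.66 to 4.88 FPKM in the other HA libraries.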

How the results depend on the processing

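The 5 calls on members became 1 with a filter of 5 FPKM (which removes all 5 genes and admits Sfrp2) and 1 when the replicate block was added, where Wnt5b alone passed; with 1 library left out they ranged from 1 to 4. The 833 calls over all genes became 542 with no filter, 230 with the block and 305 with GC and length correction and the block, and ranged from 415 to 718 with 1 library left out. The 9 calls on further pathway genes became 15 after TPM scaling, 3 with the block and 5 with GC and length correction and the block, and ranged from 5 to 9 with 1 library left out. TPM scaling gave 915 higher and 239 lower genes, GC and length correction 477 higher and 452 lower, against 506 higher and 327 lower as reported. TPM scaling divides each library by its summed FPKM, which was 304893 to 307263 in TABS and 312629 to 317439 in HA. With it the median log2 fold change over all tested genes was 0.045, against 0.006 as reported. The numbers do not pair the libraries: 2 of 8 correlated best with their own number. With the block Axin2 (adjusted p = 0.0748), Fzd5 (0.117), Fzd9 (0.113) and Wnt6 (0.145) lost their calls, as did Vangl1 (0.0763), Daam2 (0.0868), Bcl9, Gpc1, Draxin and Ccn5, while Lrp1, Fst and Fosl1 passed. Dkk2 passed with the block and Lgr6 did not (0.0824), and with GC and length correction added neither passed (0.0541 for Dkk2 and 0.0893 for Lgr6), nor did Vangl1 (0.0579). With that correction and the block, Wnt5b (limma adjusted p = 0.0283), Axin2 (0.0299), Fzd9 (0.033) and Wls (0.035) passed. Fzd5 (0.166), Wnt6 (0.0563), Bcl9 (0.22), Gpc1 (0.0607) and Ccn5 (0.0579) did not pass there. Fold changes followed transcript GC content over all genes (Spearman 0.354 over 11277). Over the tested members the value was -0.044, but 31 genes are too few to tell whether they share the trend. Median GC content was 53.9% in the tested members and 49.8% in all tested genes. GC and length correction moved the members' median log2 fold change from 0.015 to -0.03, and that of all tested genes from 0.006 to 0.001. Why the summed FPKM differed, and the cause of the other shifts, was not tested.

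Signs turned in members near 0, none of them called in any fit. GC and length correction gave -0.012 for Axin1, -0.027 for Dvl2, -0.03 for Fzd1, -0.05 for Fzd2 and -0.045 for Znrf3, with or without the block. TPM scaling gave 0.029 for Ror2, 0.032 for Lrp6 and 0.034 for Dvl1, quantile normalization -0.007 for Fzd2, and a pseudocount of 1 in the fit from 0.1 FPKM 0.001 for Wnt2b. With 1 library left out, Fzd1 lay between -0.007 (without HA 1) and 0.076. Lgr4 turned to -0.001 without TABS 2 and -0.011 without HA 1, and Fzd2 to -0.016, -0.01 and -0.003 without TABS 3, HA 3 and HA 4 (at most 0.039). Ror2 turned to 0.011 and 0.002 without TABS 1 and HA 3 (at least -0.02), and Znrf3 to -0.045, -0.001 and -0.031 without TABS 1, TABS 2 and HA 2 (at most 0.089). Lrp6 turned to 0.004, 0.016 and 0.047 without TABS 3, TABS 4 and HA 4 (at least -0.04). Dvl1 turned to 0.013, 0.013, 0.041 and 0.023 without TABS 1, TABS 2, HA 1 and HA 2 (at least -0.079). In the fit from 0.1 FPKM, Ror1 lay between -0.002 (without TABS 1) and 0.284, and Wnt2b to 0.026, 0.126, 0.092 and 0.023 without TABS 2, TABS 4, HA 2 and HA 4 (at least -0.173).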
